A study of Mus musculus with 12 samples.

Results

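The 10 genes described here are regulators and effectors of the T cell and natural killer (NK) cell lineages, taken from a fixed list out of 21887 mouse protein-coding genes. Of the 10, 5 encode transcription factors (Gata3, Tcf7, Bcl11b, Tbx21 and Eomes) and 5 encode surface and signalling proteins (Lck, Cd3e, Cd4, Cd8a and Zap70). All 10 had a position in the gene table. The histone marks H3K27me3 (Millipore 07-449) and H3K4me3 (Diagenode C15410003) were mapped by chromatin immunoprecipitation with sequencing in cKit+ bone marrow cells that the series design names Lin-cKit+, a fraction rich in blood stem and progenitor cells. The KO mice were Mx1Cre+ Ints11 flox/flox and the WT mice were their littermates. All were C57BL/6, and cells were sorted 4 days after poly(I:C), which the labels give for both genotypes. Mx1Cre is switched on by interferon, which poly(I:C) elicits, so the deletion is not limited to 1 blood lineage. Whether the WT littermates carried the Cre was not stated, and peak lists do not show how far Ints11 was deleted. The libraries were from 2 KO mice (KO_399 and KO_401) and 2 WT mice (WT_407 and WT_409), whose titles carry these numbers, taken here to be animal numbers. Each mouse gave a list of H3K27me3 peaks and a list of H3K4me3 peaks, 8 lists in all.

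H3K27me3 is laid down by Polycomb repressive complex 2 and marks silenced genes. H3K4me3 marks active or poised promoters, and promoters that carry both marks are called bivalent. Progenitors in the bone marrow do not yet express the T cell programme, which starts after they enter the thymus and receive Notch signals. Gata3, Tcf7 (TCF-1) and Bcl11b then drive T cell specification and commitment. Tbx21 (T-bet) and Eomes are T-box factors that direct effector T cells and NK cells. Cd3e is a chain of the T cell receptor complex, Cd4 and Cd8a are its co-receptors, and Lck and Zap70 are the tyrosine kinases that carry its signal. Ints11 is the catalytic subunit of Integrator, which cleaves nascent transcripts.

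Each gene was measured by the bases under peaks in its window, the gene span with 5 kb on each side. The H3K27me3 lists covered 15.2 Mb in KO_399 and 23.1 Mb in KO_401, against 34.5 Mb in WT_407 and 31.5 Mb in WT_409. For H3K4me3 the covered length was 44.5 Mb in KO_399 and 36.7 Mb in KO_401, against 37.0 Mb in WT_407 and 38.6 Mb in WT_409. KO_399 thus had the shortest H3K27me3 and the longest H3K4me3 cover. Bases at the genes were not scaled to these totals unless given per Mb, and the part that the totals had in the values was not tested. The 8 stem and progenitor markers (such as Kit and Cd34) had H3K4me3 in all 4 libraries, and so did the 7 granulocyte and monocyte markers. It was in all 4 libraries at 3 of 6 T and NK markers (Cd3d, Cd3g and Cd247), 4 of 6 B cell markers and 3 of 5 erythroid markers. These counts are for the whole window. Cd3d, Cd3g and Cd247 had neither mark within 1 kb of a tabled start in any library. Over 14 B lymphoid genes the H3K4me3 cover averaged 1906 bp per gene in KO_399 and 1063 bp in KO_401, against 1003 bp in WT_407 and 3119 bp in WT_409.

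The RefSeq promoter table (GRCm38.p6, the coordinates of mm10) held start sites for 9 of the 10 genes, Cd4 being the one without an entry. Each entry runs from 250 bases before the start to 50 bases after it. The tabled starts of Gata3 (9878600), Tcf7 (52283014 and 52282595) and Bcl11b (108003414) lie inside their gene spans. On the upstream side these spans end at 9887953, 52283383 and 108004145, and other starts may be missing from the table. The 4 sequences printed here show the range of promoters that the results turn on. Tcf7 carried both marks at its start, Bcl11b carried H3K27me3 alone, Lck had its strong H3K4me3 peak beside the start shown, and Cd8a had neither mark in any library. They are written 5′ to 3′ on the strand of the gene, with every CG dinucleotide (CpG) in capitals.
Tcf7 (chr11:52282965-52283264, minus strand): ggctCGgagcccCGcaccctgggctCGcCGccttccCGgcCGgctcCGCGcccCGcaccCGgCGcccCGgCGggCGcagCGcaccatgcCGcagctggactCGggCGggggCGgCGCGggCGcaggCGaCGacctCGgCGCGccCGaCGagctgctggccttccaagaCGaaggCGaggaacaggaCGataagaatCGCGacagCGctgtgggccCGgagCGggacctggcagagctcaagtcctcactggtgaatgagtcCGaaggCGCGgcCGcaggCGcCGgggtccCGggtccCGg
Bcl11b (chr12:108003365-108003664, minus strand): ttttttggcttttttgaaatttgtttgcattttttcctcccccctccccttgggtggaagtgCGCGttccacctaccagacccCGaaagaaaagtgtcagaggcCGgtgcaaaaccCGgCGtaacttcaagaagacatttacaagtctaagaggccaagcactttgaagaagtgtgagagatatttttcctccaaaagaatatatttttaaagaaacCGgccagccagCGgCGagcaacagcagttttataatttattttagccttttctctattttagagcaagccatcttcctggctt
Lck (chr4:129558323-129558622, minus strand, the downstream of its 2 starts): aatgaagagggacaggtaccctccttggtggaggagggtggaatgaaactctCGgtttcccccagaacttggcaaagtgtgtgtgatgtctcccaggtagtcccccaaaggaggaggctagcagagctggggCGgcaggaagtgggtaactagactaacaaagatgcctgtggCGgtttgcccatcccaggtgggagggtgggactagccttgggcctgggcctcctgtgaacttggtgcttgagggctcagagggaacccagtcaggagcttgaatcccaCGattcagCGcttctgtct
Cd8a (chr6:71373177-71373476, plus strand): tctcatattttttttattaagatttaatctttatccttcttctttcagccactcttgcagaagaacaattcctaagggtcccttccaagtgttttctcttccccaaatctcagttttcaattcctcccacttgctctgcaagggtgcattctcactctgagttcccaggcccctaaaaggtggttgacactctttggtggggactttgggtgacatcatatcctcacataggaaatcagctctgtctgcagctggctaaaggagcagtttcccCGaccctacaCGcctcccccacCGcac

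The Tcf7 entry printed above held 45 CpG in its 300 bases, and only 2.48% of 21263 promoters of protein-coding genes held as many or more. All of these bases lie inside the Tcf7 span, so the count is not one of sequence before the gene. The second Tcf7 start, 419 bases downstream, held 17. The Gata3 promoter held 22 CpG, Tbx21 21, Eomes 10 and Bcl11b 9, against a median of 13 over all promoters. The 7 promoters of the surface and signalling genes lay between 3 (Cd8a) and 9 CpG (1 of the 3 Zap70 starts), all below that median. At least 15 CpG were found in 4 of 6 transcription factor promoters, 0 of 7 surface and signalling promoters and 46.8% of all promoters. CG reads the same on both strands, so 1 strand was searched. The classes overlapped in count, since Bcl11b equalled the highest Zap70 value and Eomes was also below the median. The plot of CpG count against mark cover shows that Bcl11b and Eomes had H3K27me3 at their tabled starts. CpG were counted in the 300 bases of an entry only, which for Bcl11b do not reach the upstream end of the span.

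**Figure D1:**
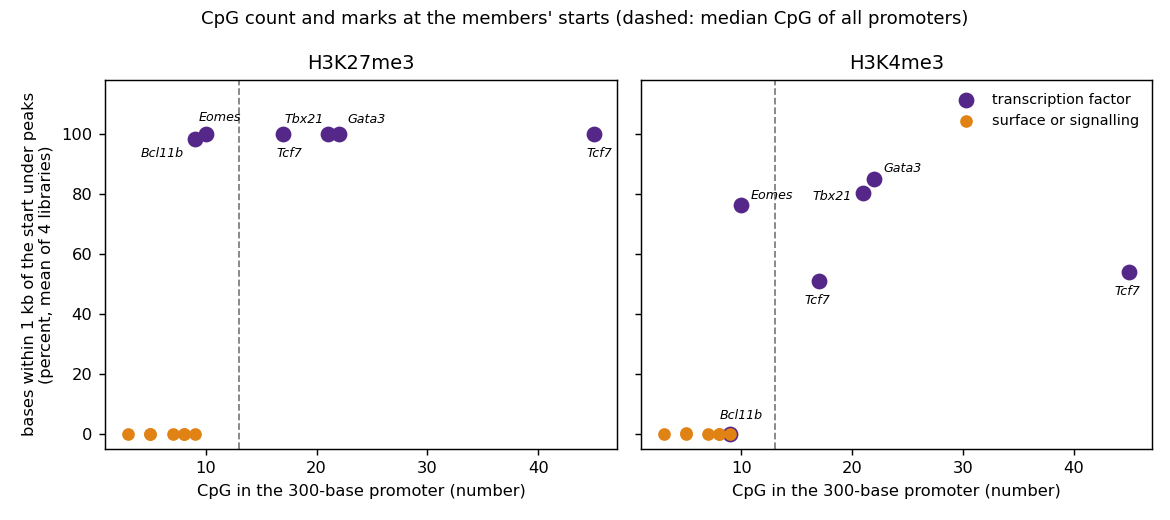
CpG number in the 300-base promoter (x axis) against the percent of bases within 1 kb of the start that lay under H3K27me3 (left) or H3K4me3 peaks (right), averaged over the 4 libraries, with 1 point per start of the 9 genes in the promoter table. All 6 transcription factor starts stood near 100% for H3K27me3 and all 7 surface and signalling starts at 0, while for H3K4me3 Bcl11b stood at 0 beside the surface and signalling genes, which were at or near 0.

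The transcription factors and the surface and signalling genes differed in what lay at their starts. Within 1 kb of a start, H3K27me3 was present in all 4 libraries at 5 of 5 transcription factors and 0 of the 4 surface and signalling genes with a start in the table. Of 17492 protein-coding genes in the table, 13.7% had it. H3K4me3 was there in all 4 libraries at 4 of 5 transcription factors (all but Bcl11b) and at 0 of 4 surface and signalling genes, against 57.6% of protein-coding genes. Cd3e, Cd8a and Zap70 had neither mark at any start in any library, as did 31.8% of protein-coding genes, and Lck had 11 bp of H3K4me3 at its downstream start in WT_409 alone. Around the starts of Gata3, Tbx21, Eomes and Tcf7 the H3K27me3 peaks filled all 2001 bases of that window in every library. Bcl11b had 1857 bp in KO_399 and 2001 bp in the other 3 libraries.

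Within 5 kb of the whole gene, H3K27me3 was found in all 4 libraries at 6 of the 10 genes, the 5 transcription factors and Cd4, against 19.0% of all protein-coding genes. H3K4me3 was found in all 4 libraries at 7 of the 10 (Gata3, Tcf7, Tbx21, Eomes, Lck, Cd4 and Zap70), against 64.3% of all. The other 3, Bcl11b, Cd3e and Cd8a, had it in no library, as did 30.7% of all. Lck and Cd8a had no H3K27me3 in any library, as did 70.2% of all genes, and Cd8a had no peak of either mark. Per length of window, Eomes had the largest H3K27me3 share, with 56.8% and 75.0% in KO_399 and KO_401 and 89.6% and 88.2% in WT_407 and WT_409. Gata3 followed at 40.9% to 50.4% over the 4 libraries, Tbx21 at 20.4% to 38.8%, Bcl11b at 11.1% to 18.7%, Tcf7 at 7.28% to 12.8% and Cd4 at 4.39% to 13.3%. Eomes, Gata3 and Tbx21 did not overlap with their neighbours in this order, while Bcl11b and Tcf7 overlapped and so did Tcf7 and Cd4. Of the 21887 genes, 139 had a larger mean share than Eomes, 406 than Gata3 and 725 than Tbx21. For comparison, the summed windows of the 5 transcription factors were 20.04% and 24.3% covered in KO_399 and KO_401 and 30.7% and 29.0% in WT_407 and WT_409. The windows of 16 other T and NK transcription factors, taken up below, were 1.81% to 4.04% covered. Those of 10 myeloid factors (such as Irf8 and Klf4) were 8.11% to 12.03% covered and those of the 14 B lymphoid genes 2.65% to 5.19%. H3K27me3 was in any library at 5 of these myeloid factors and at 2 of the B lymphoid genes, Pax5 and Ebf1. These lists were not tested against each other.

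**Figure D2:**
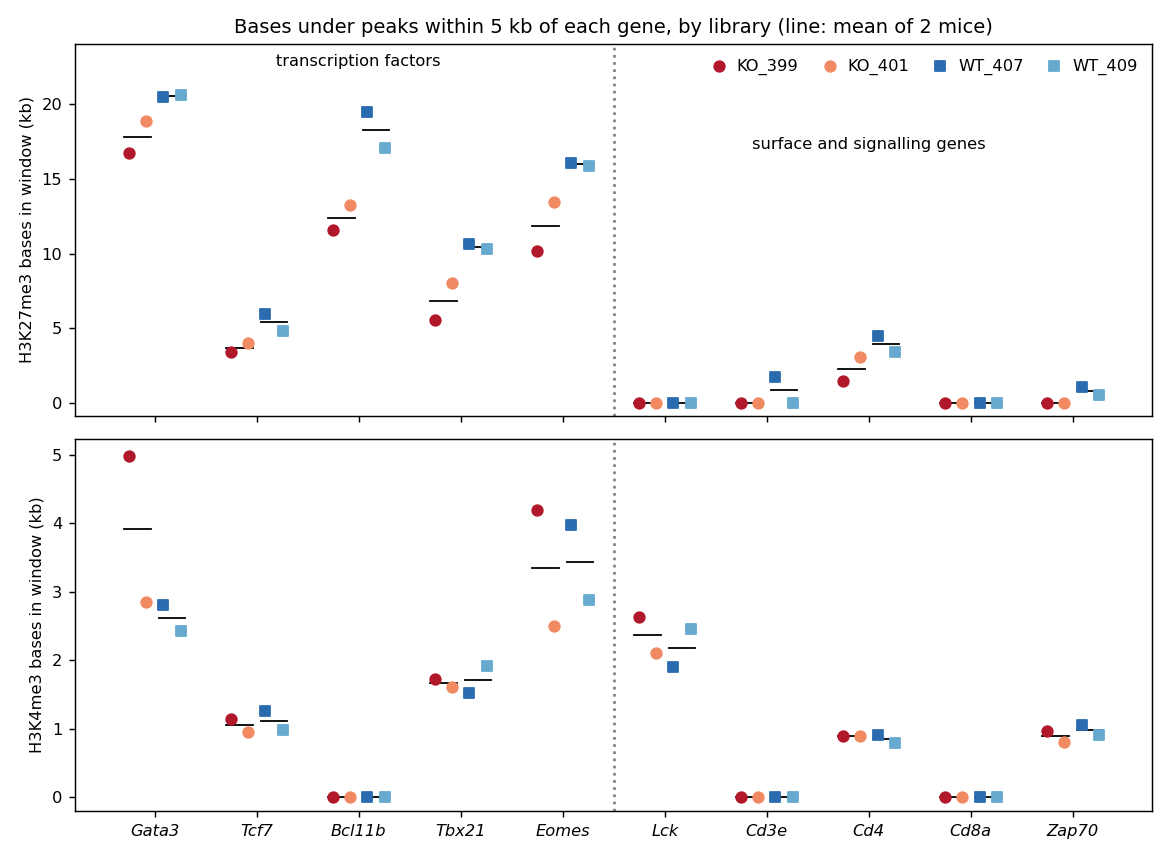
Bases under H3K27me3 (top) and H3K4me3 peaks (bottom) within 5 kb of each of the 10 genes, in kb, with 1 point per library (KO circles left of WT squares) and a line at the mean of the 2 mice of each genotype. At the 5 transcription factors both KO points lie below both WT points for H3K27me3, whereas for H3K4me3 the genotypes overlap at every gene but Gata3.

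The comparison of KO with WT asked how the marks at these genes stood after loss of Ints11. Each of the 5 transcription factors had fewer H3K27me3 bases in either KO library than in either WT library. Summed over the 5, the cover was 47442 bp in KO_399 and 57563 bp in KO_401, against 72568 bp in WT_407 and 68642 bp in WT_409. The genotypes did not overlap, at 52503 ± 7157 bp in KO and 70605 ± 2776 bp in WT (SD, n = 2 each), a KO value of 74.4% of WT. The two-sided exact permutation test gave p = 0.333, the smallest value that 2 mice against 2 can reach, so no comparison of the genotypes here can pass a threshold of 0.05. Among genes with H3K27me3 in any library, 70.0% had fewer bases in both KO libraries, so the 7 of 8 such members (the 5 factors, Cd4 and Zap70) lie close to what held for genes in general. No member had more in both KO libraries, beside 0.0154% of those genes. The difference at the 5 factors turned round when the bases were given per Mb of H3K27me3 in the library. It was then 3129 and 2488 bp per Mb in KO_399 and KO_401, against 2104 and 2176 bp per Mb in WT_407 and WT_409. The factors thus held a larger part of the smaller KO lists. Per Mb the genotypes overlapped at the 5 surface and signalling genes, as given below. Bases per Mb were not computed for genes outside the 10, so whether this was particular to the factors was not tested.

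Gata3 had the longest H3K27me3 cover of the 10 genes. It lies on chromosome 2 from 9857078 to 9887953 (mm10), and had 16726 and 18834 bp in KO_399 and KO_401, against 20473 and 20613 bp in WT_407 and WT_409. Both KO libraries were lower (KO at 86.6% of WT, exact permutation p = 0.333, n = 2 each). In WT the mark formed 1 peak of 25366 bp (WT_409) or 2 peaks, the longer of 23715 bp (WT_407), that ran past the window on the upstream side. In each KO library 5 peaks touched the window, the longest of 10189 bp in KO_399 and 11630 bp in KO_401. With 10 kb on each side of the gene the difference (KO minus WT) was -3468 bp, against -2763 bp with 5 kb. The long noncoding RNA gene 4930412O13Rik lies inside the Gata3 span, upstream of the tabled start, and 9230102O04Rik crosses the upstream end of the span. The mark therefore cannot be given to Gata3 alone. Other genes that reached into members' windows were Skp1 at Tcf7, Gm33408 and Gm33460 at Eomes, Mir8119 and Fam167b at Lck, Gm32404 and Gpr162 at Cd4, and 4933424G06Rik and the pseudogene Gm18828 at Zap70.

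Eomes (chromosome 9, 118478186 to 118486132) had 10186 and 13469 bp of H3K27me3 in KO_399 and KO_401, against 16074 and 15821 bp in WT_407 and WT_409. KO was at 74.2% of WT, without overlap (exact permutation p = 0.333, n = 2 each). Tbx21 (chromosome 11, 97098007 to 97115331) had 5561 and 8048 bp in KO_399 and KO_401, against 10610 and 10299 bp in WT_407 and WT_409, or 65.1% of WT. Both T-box genes had a second block of H3K27me3 at or past the far end of the gene, apart from the block at the start. Bcl11b (chromosome 12, 107910403 to 108004145) had 11556 and 13217 bp in KO_399 and KO_401, against 19435 and 17074 bp in WT_407 and WT_409, or 67.9% of WT. It too had 2 blocks, at the start and deep in the gene, where the summits lay 22796 bp from the start in KO_401, 22862 bp in WT_407 and 22868 bp in WT_409. In KO_399 the inner block was 3 peaks, the longest of 2962 bp, where KO_401 had 1 of 6084 bp. Tcf7 (chromosome 11, 52246527 to 52283383) had 3413 and 3995 bp in KO_399 and KO_401, against 5976 and 4835 bp in WT_407 and WT_409, or 68.5% of WT. Its mark was 1 peak over the start in every library, with a small additional peak of 743 bp inside the gene in WT_407. At Eomes, Tbx21, Bcl11b and Tcf7 alike the KO values stayed below the WT values (exact permutation p = 0.333 for each, n = 2 each).

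**Figure D3:**
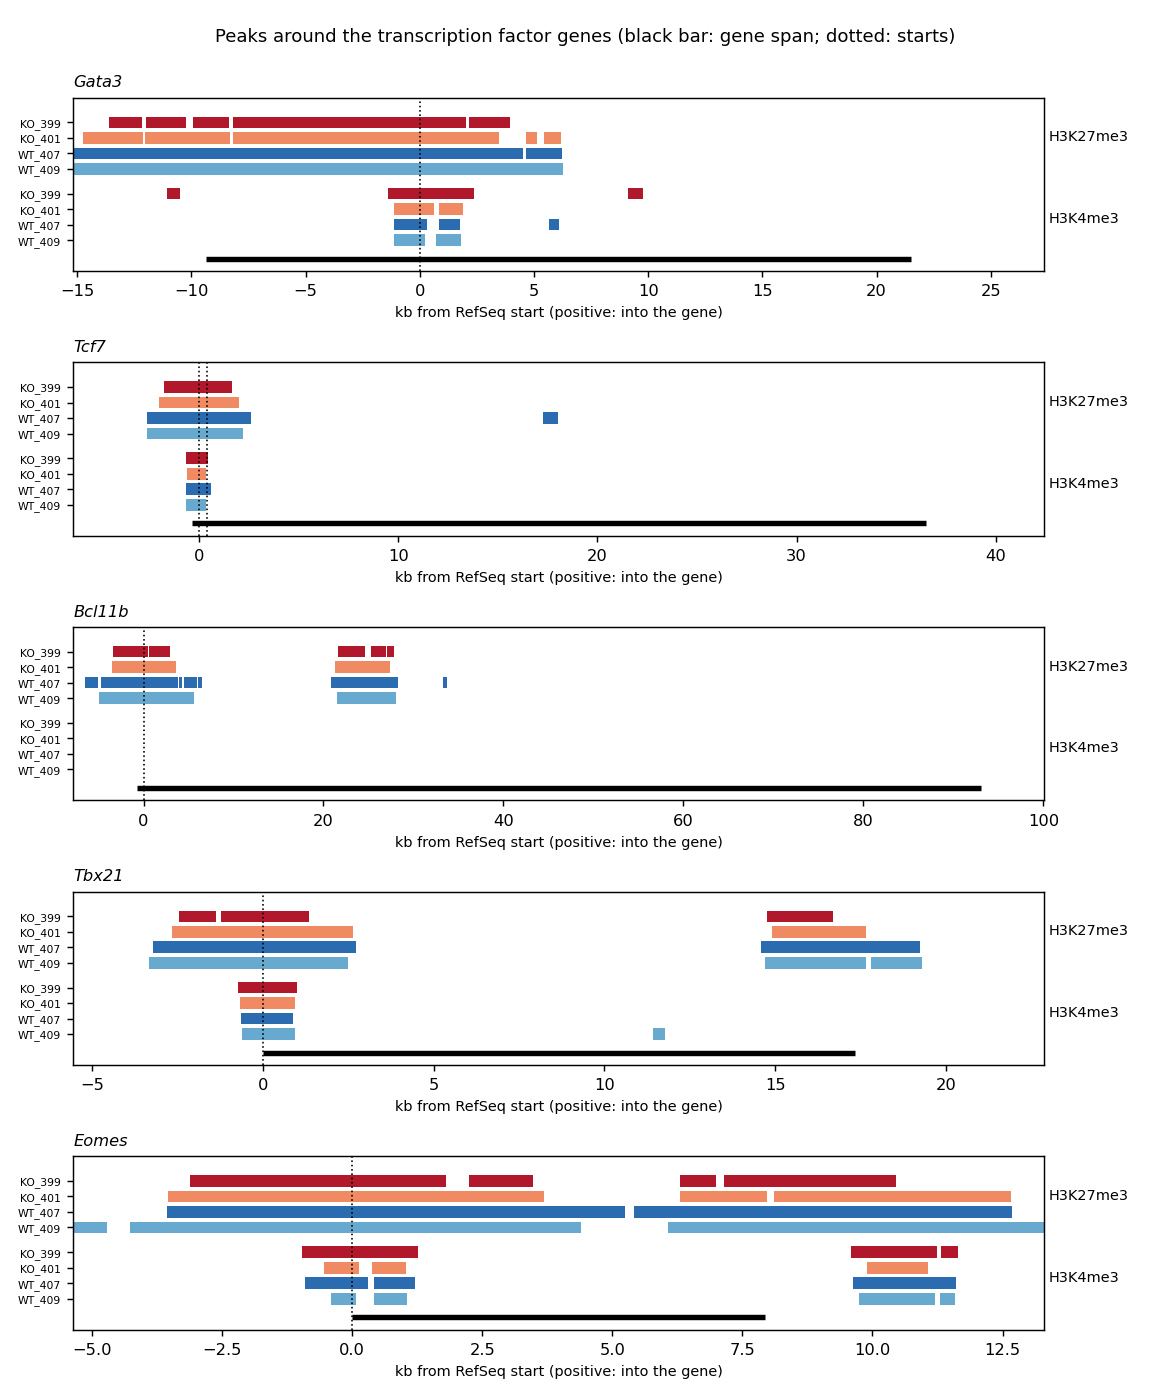
Peaks of both marks around the 5 transcription factor genes, with distance from a RefSeq start in kb on the x axis (positive into the gene) and 1 row per library, KO above WT for each mark. The black bar is the gene span and dotted lines are starts. H3K27me3 blocks are shorter or more broken in KO, H3K4me3 sits largely inside them at 4 genes, and Bcl11b has no H3K4me3 peak.

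The H3K27me3 bases of the 5 factors were also counted near and away from their tabled starts. The upstream end of the Gata3 span lies more than 2 kb from its only tabled start and was counted as away. Within 2 kb of a start the sum was 18284 and 19999 bp in KO_399 and KO_401, against 20424 and 20228 bp in WT_407 and WT_409, out of 20424 bp available. The near windows were full in both WT libraries and in KO_401 at Gata3, Bcl11b, Tbx21 and Eomes, so a difference there could hardly show. Farther away it was 29158 and 37564 bp in KO_399 and KO_401, against 52144 and 48414 bp in WT_407 and WT_409. KO was at 66.4% of WT away from the starts, and its 94.2% near them is bounded by that ceiling. For 1650 genes with 1 start, H3K27me3 in all 4 libraries and the mark in both places in WT, summed bases in KO were 82.3% of WT near the start and 57.2% away from it. Of these, 558 had the near window wholly covered in both WT libraries, and there KO was at 91.6% near and 61.5% away. The split was chosen after the values were seen. The median KO value over all 5579 genes with H3K27me3 in both WT libraries was 60.6% of WT (middle 50% of genes 40.1% to 74.2%), and over the 5 factors it was 68.5%. Of the 5 factors, 4 lay within that middle range and Gata3 above it.

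**Figure D4:**
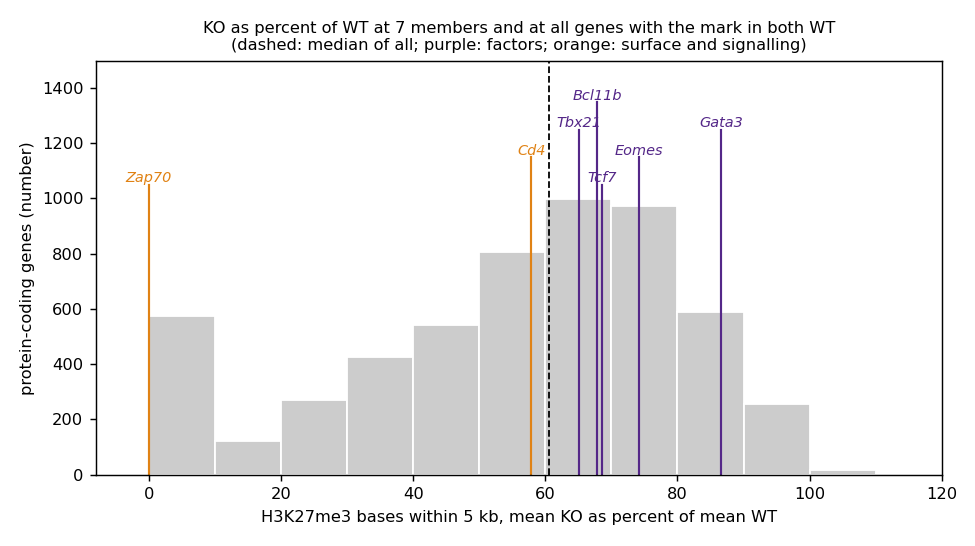
Histogram of the mean KO as a percent of the mean WT H3K27me3 cover for the 5579 protein-coding genes with the mark in both WT libraries (x axis in percent, y axis number of genes), with a vertical line for each of the 7 members among them. The factors stand between 65.1% and 86.6%, to the right of the dashed median of 60.6%, and Cd4 (57.9%) and Zap70 (0) stand to its left.

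The authors gave each peak's strength as the fold of the summit over background. At Tcf7 the fold was 9.53 in KO_399 and 9.25 in KO_401, against 15.4 in WT_407 and 19.0 in WT_409. The strongest Tbx21 peak had a fold of 8.20 in KO_399 and 15.6 in KO_401, against 17.1 in WT_407 and 20.5 in WT_409. Folds of different libraries are not on a common scale, so the rank in each list is given beside them. By −log10 q, the Tcf7 peak stood above 86.0% and 64.7% of its list in KO_399 and KO_401, against 91.5% and 95.1% in WT_407 and WT_409. The Tbx21 peak stood above 79.2% and 98.8% in KO_399 and KO_401, against 96.4% and 97.7% in WT_407 and WT_409. Ranks from lists of unequal length show no change by themselves. With peaks of a fold of at least 10 alone, H3K27me3 was left in all 4 libraries at 1 of the 10 genes, Gata3, and Eomes missed it by its KO_399 fold of 9.996.

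H3K4me3 at the transcription factors did not separate the genotypes. Summed over the 5 genes it was 12043 and 7914 bp in KO_399 and KO_401, against 9558 and 8193 bp in WT_407 and WT_409. The genotypes overlapped (exact permutation p = 1, n = 2 each), and the 2 KO libraries were the highest and the lowest of the 4. Without KO_399 the difference (KO minus WT) was -961.5 bp and without KO_401 it was 3167.5 bp, so its direction rested on KO_399. Gata3 was the only member whose genotypes did not overlap, with 4975 and 2852 bp in KO_399 and KO_401, against 2809 and 2422 bp in WT_407 and WT_409 (exact permutation p = 0.333, n = 2 each). The gap between KO_401 and WT_407 was 43 bp, and 22.1% of all genes with H3K4me3 were higher in both KO libraries, set beside 1 of the 7 members with the mark. No member was lower in both KO libraries (3.63% of those genes), and no member had H3K4me3 in both libraries of 1 genotype only (0.415% in KO only, 0.178% in WT only). In KO_399 the Gata3 peak over the start was 3768 bp wide, whereas in the other 3 libraries this stretch held 2 peaks, the wider of 1766 bp in KO_401, 1449 bp in WT_407 and 1349 bp in WT_409. Tcf7 had 1143 and 955 bp in KO_399 and KO_401, against 1252 and 977 bp in WT_407 and WT_409, in a single peak. Tbx21 had 1725 and 1614 bp in KO, against 1518 and 1919 bp in WT_407 and WT_409. Eomes had 4200 and 2493 bp in KO_399 and KO_401, against 3979 and 2875 bp in WT_407 and WT_409, with a second H3K4me3 block about 10 kb past the start, over the long noncoding RNA gene Gm33460. The genotypes overlapped at Tcf7, Tbx21 and Eomes.

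Both marks lay on the same bases in each of the 4 mice at Gata3, Tcf7, Tbx21, Eomes and Cd4, as at 10.4% of all genes. At Cd4 these bases lay outside the gene span, under H3K4me3 peaks with summits inside the neighbouring gene Gpr162. Of the 4150 genes with H3K27me3 in all 4 libraries, 54.8% had such bases in every mouse, against 5 of these 6 members. At Tcf7 every H3K4me3 base was also under H3K27me3 in all 4 mice, and at Tbx21 this held for all but the 343 bp of a separate peak in WT_409. Summed over the factors, 10141 and 7914 bp were under both marks in KO_399 and KO_401, against 9558 and 7850 bp in WT_407 and WT_409, and the genotypes overlapped (exact permutation p = 0.667, n = 2 each). Gata3 and Tbx21 had more such bases in either KO mouse than in either WT mouse, 2 of 6 members beside 4.36% of genes with both marks. At Gata3 they were 4187 and 2852 bp in KO_399 and KO_401, against 2809 and 2422 bp in WT_407 and WT_409, and at Tbx21 1725 and 1614 bp in KO, against 1518 and 1576 bp in WT. Zap70 had fewer, with none in KO, against 767 bp in WT_407 and 529 bp in WT_409, beside 26.3% of those genes. In bulk chromatin such overlap may come from the same chromosomes or from different cells, which cannot be told apart here. Bcl11b was the exception among the factors, with 11556 to 19435 bp of H3K27me3 and no H3K4me3 peak in any library. A peak below a fold of 5 would not be listed, so no value below that can be given for Bcl11b. A fold of 5 corresponded to 13.7 to 17.3 reads at a summit in the H3K4me3 libraries and 19.5 to 22.4 in the H3K27me3 libraries.

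The surface and signalling genes had little H3K27me3. Summed over the 5 it was 1472 and 3092 bp in KO_399 and KO_401, against 7289 and 3943 bp in WT_407 and WT_409, or 2282 ± 1146 bp in KO and 5616 ± 2366 bp in WT (SD, n = 2 each). The genotypes did not overlap (exact permutation p = 0.333), but per Mb of H3K27me3 in the library they did, at 97.1 and 134 bp in KO_399 and KO_401 and 211 and 125 bp in WT_407 and WT_409. Without WT_407 the difference was -1661 bp, against -3334 bp with all 4 libraries. Lck and Cd8a (chromosome 6, 71373427 to 71379171) had none in any library. Cd3e (chromosome 9, 44998735 to 45009663) had 1739 bp in WT_407 and none in KO_399, KO_401 or WT_409. These were 2 weak peaks at the far end from the start, with folds of 5.62 and 5.87.

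At Cd4 and Zap70 every summit lay outside the gene span. Cd4 (chromosome 6, 124864693 to 124888247) had 1472 and 3092 bp of H3K27me3 in KO_399 and KO_401, against 4468 and 3414 bp in WT_407 and WT_409, or 57.9% of WT without overlap (exact permutation p = 0.333, n = 2 each). It had 899 and 897 bp of H3K4me3 in KO_399 and KO_401, against 912 and 793 bp in WT_407 and WT_409, where the genotypes overlapped. All 4 H3K4me3 summits and 1 H3K27me3 summit per library lay inside Gpr162, a neighbouring gene for an orphan receptor that ends at 124864195, below the Cd4 span. In KO_401 and both WT libraries the H3K27me3 peak reached into the lower end of the Cd4 span. Zap70 (chromosome 1, 36761798 to 36782821) had 974 and 804 bp of H3K4me3 in KO_399 and KO_401, against 1048 and 915 bp in WT_407 and WT_409. It was a single peak past the far end of the gene in every library, at a fold of 21.0 and 15.4 in KO_399 and KO_401 and 17.2 and 20.4 in WT_407 and WT_409. Its H3K4me3 summits were 7088 to 7124 bp from the nearest other protein-coding gene, Tmem131. An H3K27me3 peak overlapped this H3K4me3 peak in WT only, of 1082 bp in WT_407 and 529 bp in WT_409, with none in KO. The bases under both marks were 767 bp in WT_407 and 529 bp in WT_409. The 2 H3K27me3 peaks had folds of 5.13 and 5.54, close to the lowest fold listed. Of genes with H3K27me3, 8.26% likewise had it in both WT and neither KO library.

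**Figure D5:**
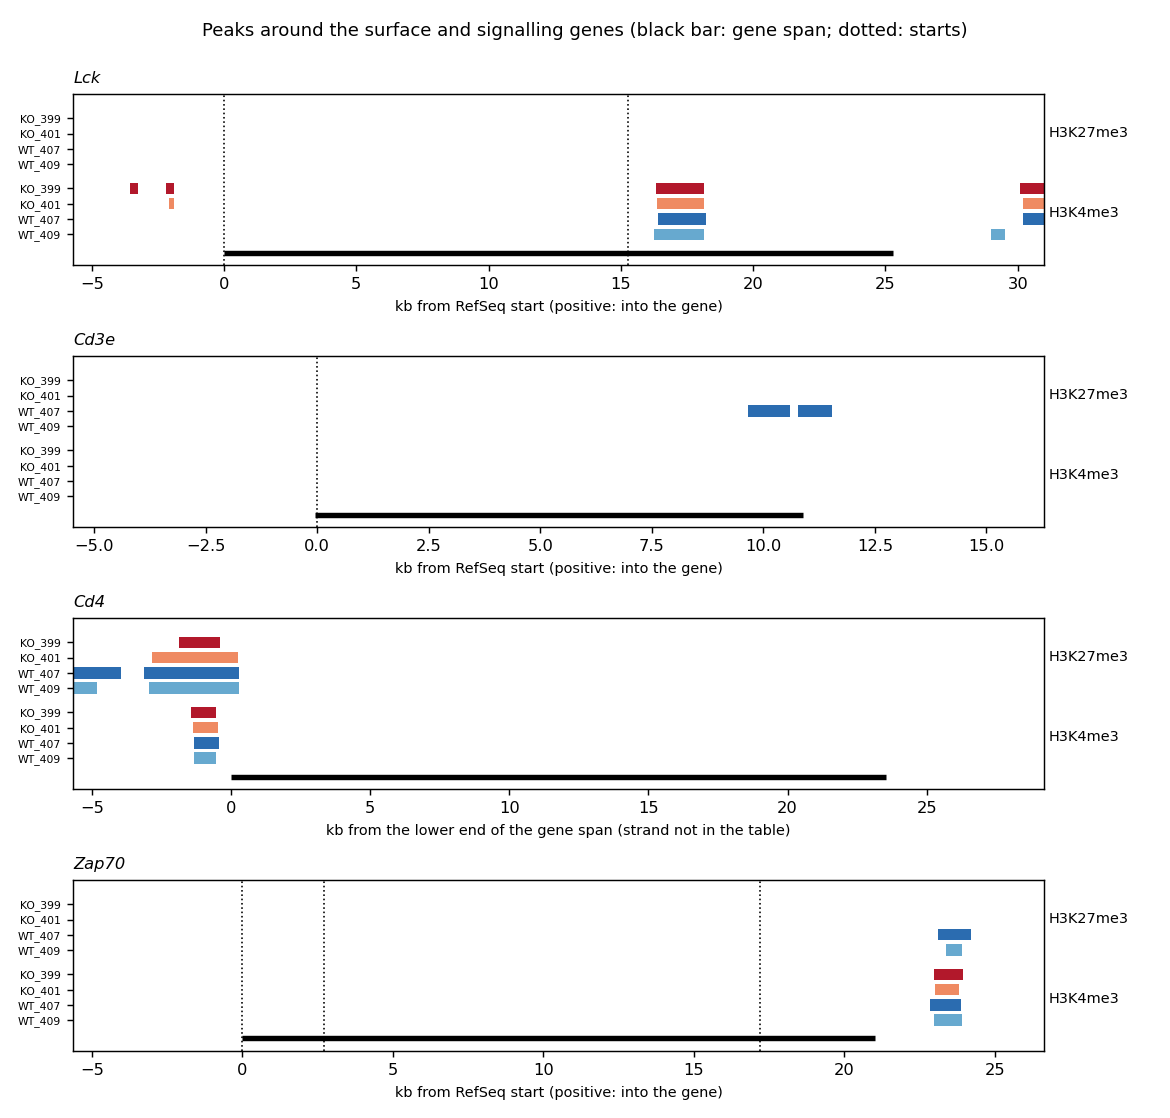
Peaks of both marks around Lck, Cd3e, Cd4 and Zap70, drawn as for the transcription factors, with Cd4 placed by the lower end of its span because its strand was not in the table. The marks of Cd4 and Zap70 lie at or beyond an end of the black bar of the gene, and Lck has a strong H3K4me3 peak inside it and small ones upstream in KO. Cd8a had no peak and is not drawn.

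Lck, the kinase that starts T cell receptor signalling, was the only surface or signalling gene with H3K4me3 inside its span. The gene lies on chromosome 4 from 129548344 to 129573641 and is read from the higher coordinate. It had 2624 and 2104 bp in KO_399 and KO_401, against 1906 and 2449 bp in WT_407 and WT_409, and the genotypes overlapped (exact permutation p = 0.667, n = 2 each). Most of this was 1 peak of 1827 bp in KO_399, 1797 bp in KO_401, 1818 bp in WT_407 and 1898 bp in WT_409. Its summit lay 1615 to 1637 bp downstream of the Lck start printed above. The authors' fold there was 49.3 and 44.3 in KO_399 and KO_401, against 29.4 and 52.3 in WT_407 and WT_409, in each library the highest H3K4me3 fold of any peak inside a member's span. The upstream start had a small H3K4me3 peak about 2 kb before it in both KO libraries and in neither WT library. That peak was 273 bp wide in KO_399 with a fold of 7.67, and 209 bp wide in KO_401 with a fold of 5.80. It lay 1120 and 1151 bp from Fam167b, the next gene upstream, inside which KO_399 had a further peak of 306 bp. The peak was singled out after the values were seen, and its difference was not tested. Edges of the strong peak at Hdac1, a histone deacetylase gene, gave 218 bp in KO_399, 98 bp in KO_401 and 88 bp in WT_407 of the Lck window. In WT_409 a separate peak of 551 bp lay on that side.

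Other T and NK genes were measured in the same way. Of 16 other transcription factors, H3K27me3 was in all 4 libraries at 9, beside 19.0% of all genes. Of the 12 with the mark in any library, 9 had fewer bases in either KO than in either WT library, near the 70.0% of all such genes. Of 29 other surface and signalling genes it was in all 4 libraries at 1, Cd247, and in none at 24, beside 70.2% of all genes with it in none. Among the leading factors by window share were Tox2 and Id2, an inhibitor of E proteins that NK and innate lymphoid cells need. Id2 had 4111 and 4419 bp in KO_399 and KO_401, against 4504 and 6400 bp in WT_407 and WT_409. Tox2 had 4527 and 12493 bp in KO, against 21410 and 13005 bp in WT_407 and WT_409. Among the surface genes the leading ones were Thy1, Ccr7 and Cd2. Thy1 had 0 and 1133 bp in KO_399 and KO_401, against 1297 and 2166 bp in WT_407 and WT_409, Ccr7 had 0 and 548 bp in KO, against 2091 and 3431 bp in WT, and Cd2 had 6382 bp in WT_407 alone. Cd3g, another chain of the receptor complex, had H3K27me3 in WT only, with 1174 bp in WT_407 and 1409 bp in WT_409.

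H3K4me3 was in all 4 libraries at 14 of the 16 other transcription factors and 9 of the 29 other surface and signalling genes, beside 64.3% of all genes. It was higher in both KO libraries at 4 of 15 and 2 of 13 of those with the mark in any library, beside 22.1% of all genes. The 4 factors were Runx3, Id2, Zbtb7b and Ikzf2, and the others were Ptcra and Lat. Ptcra had neither mark within 1 kb of a tabled start in any library, so its H3K4me3 lay elsewhere in the window. The leading factors by window share were Id2 (8440 and 7548 bp in KO, against 7481 and 7175 bp in WT), Zbtb7b and Nfil3. Zbtb7b directs CD4 T cells and had 14045 and 13355 bp in KO, against 13182 and 13325 bp in WT_407 and WT_409. Nfil3, which NK cell development needs, had 11096 and 10281 bp in KO, against 9363 and 10308 bp in WT, with overlap. The leading surface and signalling genes were Nkg7, Cd27 and the adaptor Lcp2, and the genotypes overlapped at all 3. Nkg7 had 6920 and 4566 bp in KO_399 and KO_401, against 6496 and 4532 bp in WT_407 and WT_409. Within 1 kb of a start, neither mark was present in any library at 14 of the 19 surface and signalling genes with a start in the table and at 2 of 11 transcription factors, Foxp3 and Bach2, beside 31.8% of all genes in the table. Both marks stood at the start in all 4 libraries at Id2, Lef1 and Sox13 (3 of 11) and at 0 of 19, beside 7.41% of all genes in the table. At least 15 CpG were found in 11 of 24 promoters of these factors and 0 of 21 promoters of these surface and signalling genes.

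Over the 8 libraries, in percent of the window covered, the gene on another chromosome nearest to Lck was Poc1b, at a Euclidean distance of 0.198 percentage points. For Tcf7 it was Kcnmb4 (1.57), for Gata3 Espn (4.85), for Tbx21 Sptbn4 (5.43) and for Eomes Mab21l1 (13.4). For Bcl11b it was Prdm6 (1.12), for Cd4 Mycbpap (1.58), for Zap70 Fam219a (0.814) and for Cd3e Etv3l (0.0797). Cd3e and Etv3l were covered in the H3K27me3 list of WT_407 alone, at 8.31% and 8.39% of their windows. Cd8a had no covered base and so no such neighbour.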

How the data were processed

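H3K27me3 and H3K4me3 ChIP-seq of 2 KO and 2 WT mice was analysed from 8 peak lists, each called on 1 library. Per the labels, 75 bp reads came from formaldehyde-fixed chromatin sonicated to 100 to 300 bp. The submitters' processing notes name MACS2, Bowtie2, Trim Galore, FastQC, deepTools and SAMtools, and build mm10. Versions and the control of the peak caller are not given in the sources used here. The 4 input libraries were not analysed here. In the deposited lists each peak has an integer score, a fold, which is a ratio of summit pileup to background, and p-values and q-values as −log10. The fold, rank by −log10 q and score are the authors' values, which served only to describe, rank and filter the peaks of a list. No deposited fold was below 5, so weaker peaks are not listed. Broad domains were often listed as several peaks, so bases and not peak numbers were compared.

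Gene spans and starts came from RefSeq tables of GRCm38.p6. Bases under merged peaks were summed in each window (Python 3.11.15, pandas 2.3.3, NumPy 2.4.6), and the counting was checked on simulated peaks. An exact permutation test over mice (two-sided, 6 labelings) compared the genotypes, which were called separate when libraries did not overlap. Its p-values measure only the spread between these samples. Read totals are unknown. Background reads per position (1.93 to 3.67) were recovered from fold and −log10 p, which a whole-number pileup solved within 0.001 for 100% of summits. If the caller scaled libraries, these are scaled depths.

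The members and lists were chosen with earlier results of these data known. Named were the 10 members, their neighbours, and, of the other T and NK genes, the 3 with the largest window share per class and mark and those with a mark in 1 genotype only; 1 of these genes is not reported here. Further names were added after values were seen where 5 or fewer genes made a count. Alternatives were other flanks, a fold of at least 10, at least 200 bp, equal peak numbers or covered length, bases per Mb, each library left out, windows at starts, and KO_401 against WT_407 alone.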

Additional observations from a re-analysis of the deposited data

How the results depend on the processing

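No paired analysis was possible because KO and WT mice carry different numbers. The lower H3K27me3 cover of the 5 factors in KO (-18102.5 bp) kept its direction and separation without flanks (-10390.5 bp), with flanks of 2 and 10 kb and with equal peak numbers. At a fold of at least 10 the difference was -46353.5 bp, but folds of different libraries are not on a common scale. With a library left out it was -23163 to -13042 bp. Genotypes that do not overlap must stay apart when a library is left out, so this range shows size only. With equal covered length it was -2743 bp with overlap, and per Mb of cover it was 668.7 bp higher in KO. At the surface and signalling genes (-3334 bp) it was -1707 bp with overlap at a fold of at least 10, 2282 bp higher in KO with equal covered length, and -52.8 bp per Mb with overlap. With equal covered length Bcl11b (5078 bp), Cd4 (2282 bp) and Tbx21 (910 bp) were also higher in KO, with overlap at Bcl11b and Tbx21. The cause was not tested.

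For H3K4me3, the factors' difference (1103 bp) was -1429 bp with equal covered length, -1644 bp for KO_401 against WT_407 alone and -961.5 to 3167.5 bp with a library left out. At the surface and signalling genes (139.5 bp) it was -46 bp without flanks, -703 bp at a fold of at least 10, -13.5 bp with equal peak numbers, -150 bp with equal covered length, -3.70 bp per Mb, -61 bp for KO_401 against WT_407 and -206.5 to 485.5 bp with a library left out. Bases under both marks at the factors (323.5 bp) gave -3673.5 bp at a fold of at least 10, -1283 bp with equal covered length, -1644 bp for KO_401 against WT_407 and -790 to 1437 bp with a library left out. The cause was not tested.

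Members with H3K27me3 in all 4 libraries were 1 at a fold of at least 10 (6 as reported), and those with H3K4me3 were 4 within 1 kb of a start (7 as reported). Members with fewer H3K27me3 bases in both KO libraries (7) were 3 with equal covered length and 0 within 1 kb of a start, where each window of the 5 factors was full in KO_401 and both WT libraries. Members with more H3K4me3 in both KO libraries (1) were 2 with a 2 kb flank, a fold of at least 10, equal covered length or at starts, and 1 to 3 with a library left out. Over all genes, 4557 had fewer H3K27me3 bases in both KO libraries (2787 at a fold of at least 10, 1307 with equal covered length) and 3352 more H3K4me3 bases (3568 to 11385 with a library left out). The windows at starts and KO_401 against WT_407 were chosen after seeing the data.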
